A study of Mus musculus with 14 samples.

Results

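The genes described here are 10 transcripts whose proteins make, restrain or dissolve blood clots. They were listed by symbol: F5, F13a1 and F10 (procoagulant factors), Pros1, Tfpi, Thbd and Serpine2 (anticoagulants), and Plau, Plaur and Serpinb2 (fibrinolysis), out of 20018 genes with a symbol on the array. They have 15 probes, of which 12 probes for 9 genes were bright enough to test. Plau, which encodes the plasminogen activator urokinase, was not well above background on any of the 14 arrays and was not tested.

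RNA came from mouse blood drawn into EDTA by sub-mandibular puncture, after lysis of the red cells. It was hybridised to 14 one-colour Agilent arrays, each labelled as 1 mouse. The labels do not say how SS mouse 01b relates to SS mouse 1, and both are counted as separate mice. The 8 SS mice (4 labelled male, 4 labelled female) had lived in a hostile or adverse social environment in the third postnatal week, and the 6 SI mice (4 labelled male, 2 labelled female) had been isolated socially as juveniles. Mice of both groups had received cocaine at 5 mg/kg, a dose below threshold, during place conditioning, and were bled 24 hours after the withdrawal that followed extinction. No group without stress or without cocaine was analysed here, strain and age are not given in the labels, and each difference below is SS minus SI. The labels call the cells PBMC; they name neither a gradient nor a sort that would remove platelets or granulocytes.

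Labelled males lie on 1 slide and labelled females on the other, so slide and sex label cannot be told apart. The Y-linked genes Eif2s3y and Ddx3y were well above background on all 6 arrays labelled female and on 0 of 8 labelled male, so the sex labels go against the data and are used here only as names of the slides. SI arrays sit in slide columns 1 and 2 and SS arrays in columns 3 and 4, so position on the slide and stress group cannot be told apart either. Between 34.8% and 47.7% of non-control spots were well above background per array, with no saturated spot, and log2 signals of mice of 1 group correlated at 0.83 to 0.99 across probes.

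As background, thrombin is formed on the surface of activated platelets, where factor Xa and its cofactor factor Va assemble, and factor XIII then cross-links the fibrin that thrombin makes. Protein S, tissue factor pathway inhibitor and thrombomodulin hold this cascade back, and urokinase bound to its receptor turns plasminogen into plasmin, which dissolves fibrin unless serpins block it. Most plasma clotting factors are made in the liver, but megakaryocytes load platelets with factor V, factor XIII subunit A and protein S, and monocytes and macrophages carry factor XIII subunit A, the urokinase receptor and, in mice, factor X.

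Signals are given as scaled log2 signal, the log2 of the processed fluorescence minus the array's 75th percentile, taken over 14522 probes with signal well above background on every array. A value of 0 lies at that percentile, and a difference of 1 is a doubling. Where a gene had more than 1 tested probe, the brighter one stands for it. In the limma fit over all 14 arrays with slide as a term, 5 of the 9 tested members passed an adjusted p of 0.05, all higher in SS. Of all 24033 tested probes 7.98% were called, 7.41% higher and 0.57% lower in SS. The 5 were F5, F13a1, Pros1, Serpinb2 and Serpine2. The median difference of the 9 members was 1.30 on the log2 scale, beside -0.14 over the 11495 tested genes with a symbol. The members were chosen with earlier results of these data known. Their count and median therefore describe these genes and are no test of the pathway.

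F5 encodes coagulation factor V, the cofactor of factor Xa. On the slide of the labelled males its brighter probe read 3.78, 4.22, 4.00 and 3.51 in the 4 SS mice, against 3.27, 2.74, 1.64 and 2.90 in the 4 SI mice. On the slide of the labelled females it read 3.66, 3.68, 3.70 and 4.19 in SS, against 2.42 and 2.10 in SI. Every SS mouse was above every SI mouse of its slide, and the low value of 1.64 belongs to SI mouse 6. F5 was higher in SS by 1.36 ± 0.24 on the log2 scale (SE, n = 8 and 6, limma adjusted p = 0.0047). Its dimmer probe gave 1.49 ± 0.26 (limma adjusted p = 0.0047), and both probes moved together from mouse to mouse within groups (r = 0.93, n = 14). On the dimmer probe the groups overlapped on the slide of the labelled males, where SS mouse 3 read 1.39 and SI mouse 4 read 1.46.

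F13a1 encodes the catalytic subunit A of factor XIII, which cross-links fibrin. Its brighter probe read 3.34, 4.11, 3.59 and 3.20 in SS and 2.90, 2.61, 1.66 and 2.86 in SI labelled male mice. In labelled female mice it read 3.45, 3.42, 3.56 and 3.85 in SS and 2.54 and 1.27 in SI. SS mice again lay above all SI mice of their slide, and the 2 SI mice of the second slide were far apart. The brighter probe was higher in SS by 1.30 ± 0.26 (SE, n = 8 and 6, limma adjusted p = 0.0066). The dimmer probe of F13a1 did not pass: it differed by 1.09 ± 0.33 (limma adjusted p = 0.064), and SI mouse 6, the lowest on the brighter probe of the labelled males, was the highest of its group on the dimmer one at -3.44. The probes correlated at 0.29 within groups (n = 14), so the F13a1 result rests on 1 of its 2 probes.

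Pros1 encodes protein S, the cofactor of activated protein C. Its only probe read 0.71, 1.39, 0.96 and 0.34 in SS and 0.19, -0.28, -1.18 and -0.01 in SI labelled male mice. In labelled female mice it read 0.25, 0.26, 0.55 and 0.65 in SS and -0.91 and -1.45 in SI. The groups did not overlap on either slide. Pros1 was higher in SS by 1.34 ± 0.24 (SE, n = 8 and 6, limma adjusted p = 0.0047). By the probe standing for each gene, 3 of 9 members had all SS above all SI mice on both slides: F5, F13a1 and Pros1. Of all tested probes, 5.11% had this order on both slides, 8.4% on the first slide and 16.6% on the second.

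Serpinb2, also called plasminogen activator inhibitor 2, inhibits urokinase. It read -2.75, -2.19, -2.92 and -3.55 in SS and -3.51, -4.33, -6.44 and -4.94 in SI labelled male mice. In labelled female mice it read -3.35, -3.46, -3.14 and -3.10 in SS and -5.36 and -5.53 in SI. The signal was well above background in all 8 SS mice, in 3 of 4 SI labelled male mice and in 1 of 2 SI labelled female mice. On the first slide the lowest SS value overlapped the highest SI value, that of mouse 4, and on the second the groups were apart. Its difference, 2.04 ± 0.37 (SE, n = 8 and 6, limma adjusted p = 0.0047), was the largest among the 9 tested members in this fit.

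Serpine2, or protease nexin-1, inhibits thrombin as well as plasminogen activators. It read -2.61, -2.21, -2.69 and -3.25 in SS and -3.03, -3.87, -5.22 and -4.35 in SI labelled male mice. In labelled female mice it read -3.03, -2.92, -2.79 and -2.26 in SS and -4.51 and -4.31 in SI. As for Serpinb2, SI mouse 4 lay above the lowest SS mouse of its slide and mouse 6 was the lowest. Serpine2 was higher in SS by 1.52 ± 0.29 (SE, n = 8 and 6, limma adjusted p = 0.0055). With normexp background correction of the median spot signals, the differences of Serpinb2 and Serpine2 shrank to 0.87 and 0.77 and did not pass (limma adjusted p = 0.079 and 0.087).

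**Figure D1:**
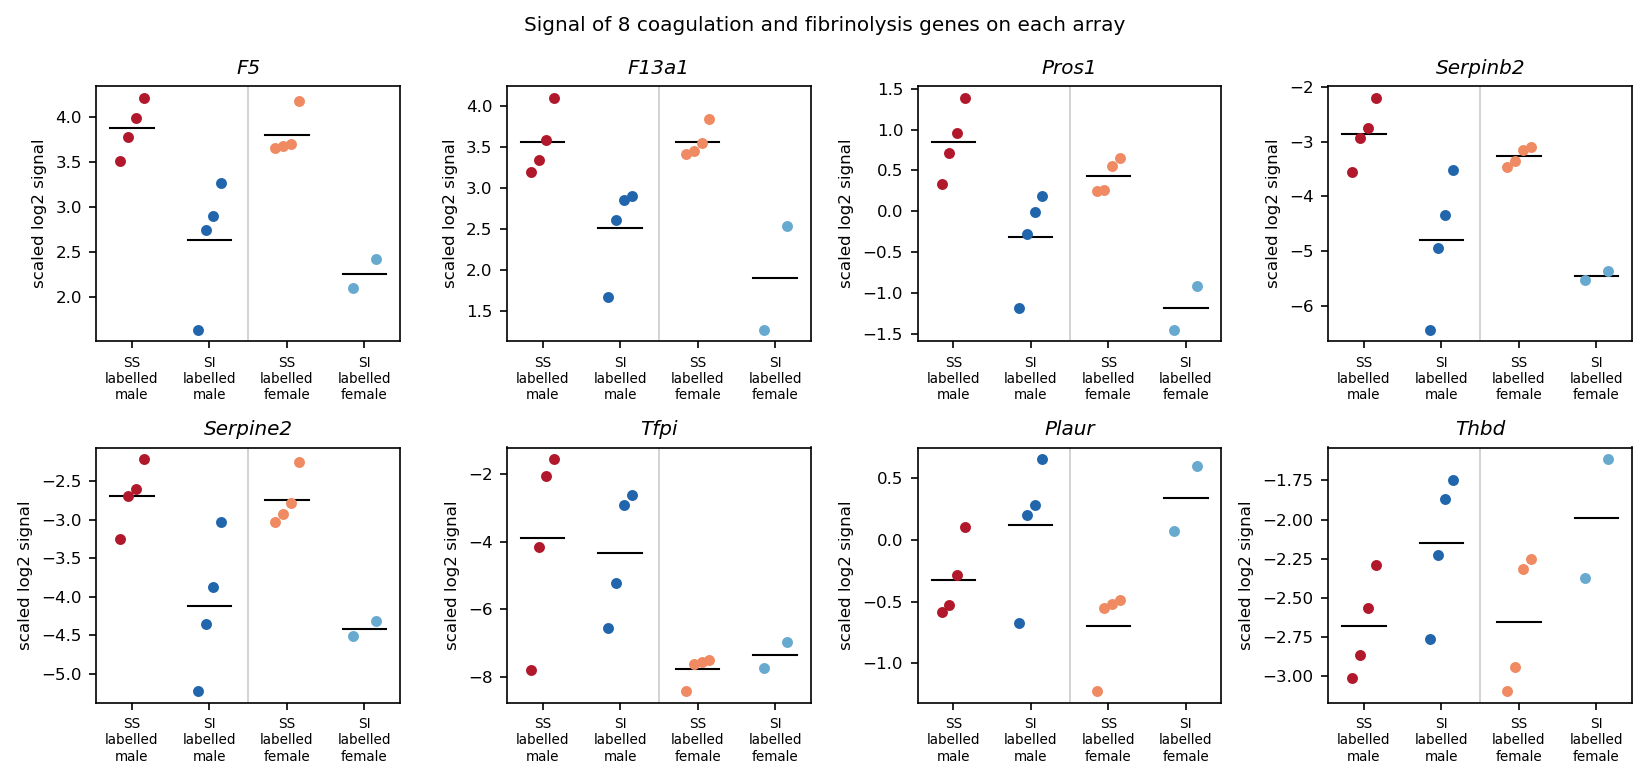
Scaled log2 signal (y axis) of the probe that stands for each of 8 members, by group (x axis); each point is 1 mouse and each line a group mean, with SS left of SI for labelled males and then labelled females. F5, F13a1 and Pros1 have all SS points above all SI points on both slides, while Plaur and Thbd have lower SS means, and Tfpi is scattered on the first slide and low on the second.

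F10 encodes factor X, the enzyme that factor V assists. Its brighter probe read 9.07, 7.90, 8.87 and 8.24 in SS and 9.44, 8.10, 7.88 and 7.56 in SI labelled male mice. In labelled female mice it read 7.78, 7.82, 7.48 and 8.08 in SS and 7.94 and 8.26 in SI. The groups overlapped on both slides, and the difference was 0.04 ± 0.29 (SE, n = 8 and 6, limma adjusted p = 0.95). The dimmer F10 probe, in contrast, was higher in SS by 0.89 ± 0.24 (limma adjusted p = 0.033), with 0.75, 1.22, 1.25 and 0.73 in SS against 0.56, 0.36, -0.17 and 0.63 in SI labelled male mice. It read 0.75, 0.82, 0.92 and 1.10 in SS against 0.38 and -1.11 in SI labelled female mice, so every SS mouse lay above every SI mouse of its slide. The 2 F10 probes were unrelated from mouse to mouse (r = -0.02 within groups, n = 14). No single direction can therefore be given for F10. By mean scaled signal the brighter probe ranked 6 and the dimmer one 2764 of 55681 probes. Which probe follows the transcript was not tested, and counts and relations that use the brighter probe share this limit.

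**Figure D2:**
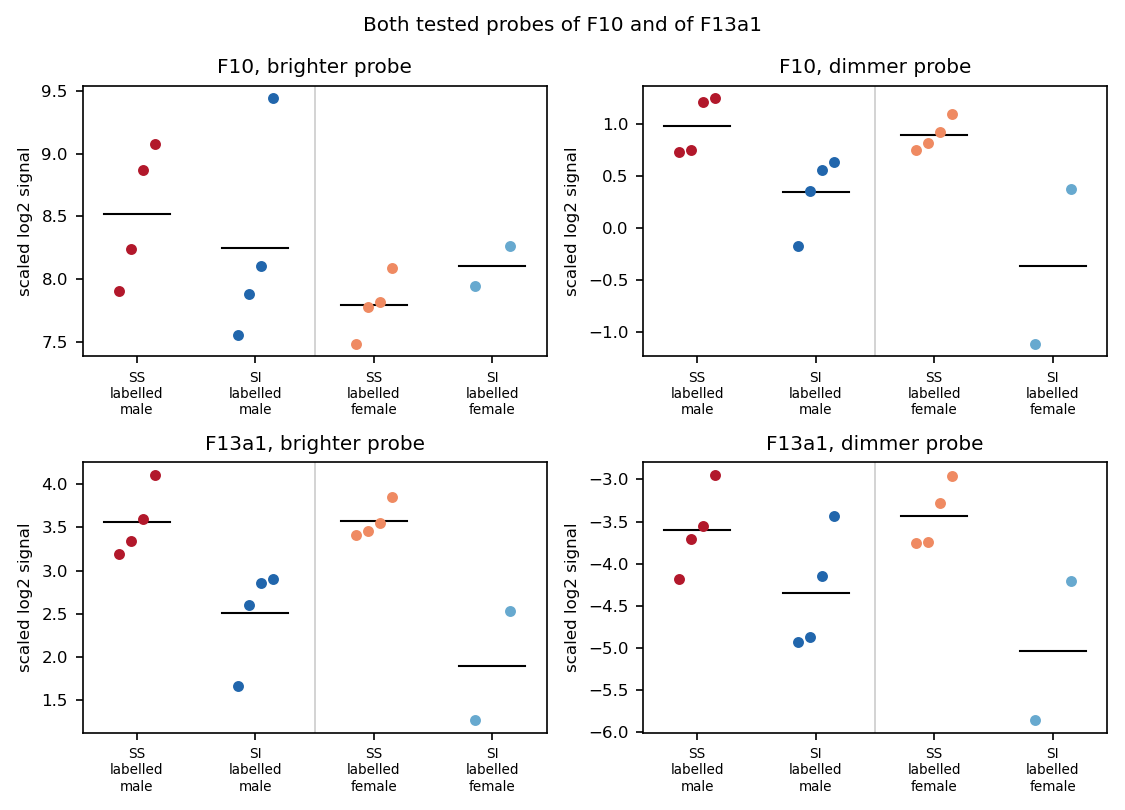
Scaled log2 signal (y axis) of both tested probes of F10 (top) and F13a1 (bottom) in each mouse, by group (x axis, SS left of SI on each slide), with lines at the group means. The dimmer F10 probe separates SS from SI on both slides and the brighter one does not; for F13a1 the brighter probe separates them and the dimmer one overlaps on the slide of the labelled males.

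The other members did not pass in this fit. Plaur, the urokinase receptor, read -0.28, -0.58, -0.53 and 0.11 in SS and -0.67, 0.21, 0.29 and 0.66 in SI labelled male mice. In labelled female mice it read -0.49, -0.55, -0.52 and -1.23 in SS and 0.60 and 0.07 in SI. Groups overlapped on the first slide through SI mouse 4, and every SS mouse was below every SI mouse on the second, where 18.1% of tested probes showed that order. The difference of Plaur was -0.68 ± 0.24 (SE, n = 8 and 6, limma adjusted p = 0.107). Without SI mouse 4 it was -0.85 and passed (limma adjusted p = 0.0095). In the other 13 runs with 1 array left out it did not pass, and over all runs it lay between -0.85 and -0.53.

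Thbd encodes thrombomodulin, the receptor through which thrombin activates protein C. It read -2.86, -2.57, -3.01 and -2.29 in SS and -2.76, -1.87, -2.22 and -1.75 in SI labelled male mice, and -2.32, -2.25, -2.94 and -3.10 in SS and -1.61 and -2.37 in SI labelled female mice. The groups overlapped on both slides, and the difference was -0.58 ± 0.22 (SE, n = 8 and 6, limma adjusted p = 0.146). Without SI mouse 4 the difference of Thbd was -0.70 and passed (limma adjusted p = 0.036). In the other 13 runs with 1 array left out it did not pass, and over all runs it lay between -0.70 and -0.46. At an unadjusted p under 0.05, 2 members were lower in SS, Plaur and Thbd, while 0 passed the adjusted threshold; 4890 of 24033 probes, in either direction, had such an unadjusted p.

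Tfpi, the inhibitor of the tissue factor and factor VIIa complex, was close to background. Its tested probe was well above background in 3 of 4 SS and 3 of 4 SI labelled male mice and in no labelled female mouse. On the first slide this probe read -4.15, -1.55, -2.05 and -7.81 in SS and -2.63, -6.55, -2.92 and -5.22 in SI, with wide overlap. The difference was 0.10 ± 0.89 (SE, n = 8 and 6, limma adjusted p = 0.96), but it was 2.33 with limma array weights (limma adjusted p = 0.030), so its size is not settled by these arrays. Another Tfpi probe, which was not tested, was well above background in 1 of 4 SS labelled male mice and in no SI mouse of that slide, which allows no fold.

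Within each slide the same 5 members had the largest differences among the 9, with fewer calls. On the slide of the labelled males 0 of 24033 probes passed (0% of probes, limma, 5706 at an unadjusted p under 0.05), and 5 members had an unadjusted p under 0.05. These 5 differed by 1.24 ± 0.31 (F5), 1.05 ± 0.33 (F13a1), 1.17 ± 0.31 (Pros1), 1.95 ± 0.48 (Serpinb2) and 1.43 ± 0.39 (Serpine2) (SE, n = 4 and 4). On the slide of the labelled females 3 of 9 members passed, all higher in SS, where 3.19% of tested probes were called higher. F5 was higher by 1.55 ± 0.38 (limma adjusted p = 0.041), F13a1 by 1.67 ± 0.41 (adjusted p = 0.041) and Pros1 by 1.61 ± 0.38 (adjusted p = 0.037) (SE, n = 4 and 2). Serpinb2 differed by 2.18 ± 0.59 and Serpine2 by 1.66 ± 0.48 (limma adjusted p = 0.059 and 0.072).

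These calls depended on single arrays. Without SI mouse 4, all 5 members passed on the first slide, and leaving out any 1 SS labelled female mouse left 0 of 9 members called on the second slide, as did leaving out SI mouse 28, SI mouse 5, SS mouse 2 or SS mouse 01b. A direct test of the difference between the slides called 0 of 9 members (limma adjusted p = 0.593 or higher), where 0.0458% of tested probes were called (0.00416% positive and 0.0416% negative). At an unadjusted p under 0.05 there were 0 members, beside 3030 of 24033 probes.

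**Figure D3:**
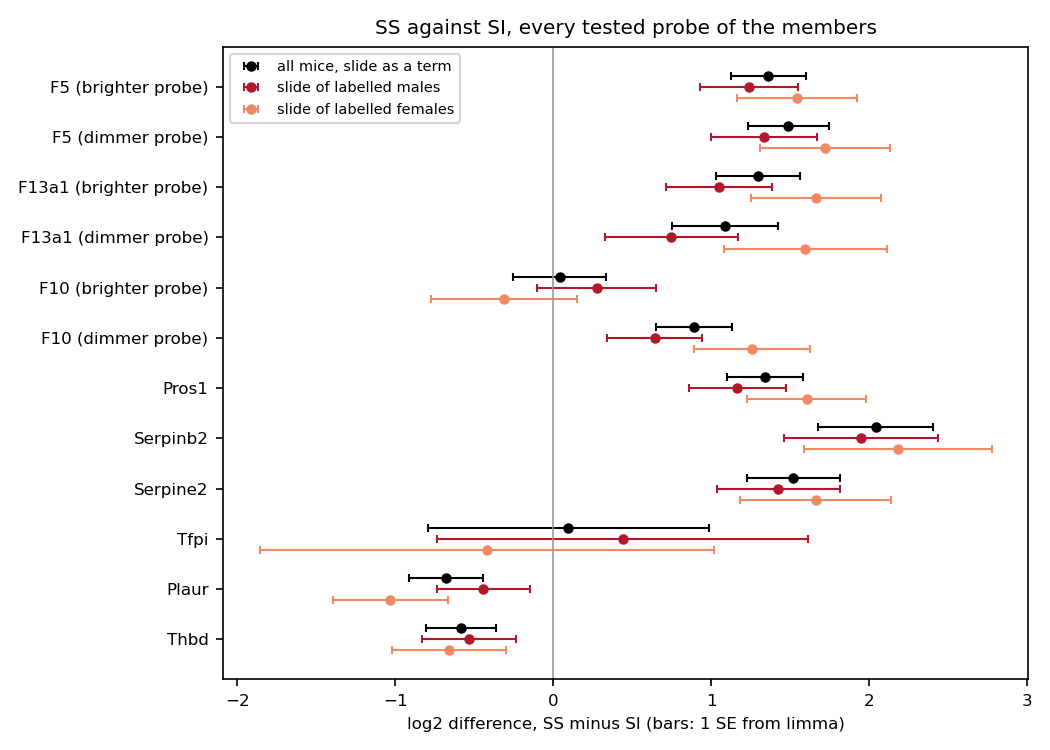
Log2 difference, SS minus SI (x axis), of each of the 12 tested probes (y axis), over all mice with slide as a term (black), for the labelled male slide (red) and for the labelled female slide (orange); bars are 1 SE from limma. Both F5 probes, the brighter F13a1 probe, Pros1, Serpinb2 and Serpine2 lie above 1 in all 3 estimates, Plaur and Thbd lie below 0, and the 2 probes of F10 part on the slide of the labelled females.

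The members were next set beside platelet and monocyte transcripts. The platelet level, the mean centred log2 signal of 24 platelet and megakaryocyte genes, lay between 0.31 and 1.19 in SS and between -1.68 and 0.26 in SI labelled male mice, and between 0.32 and 0.70 in SS and between -1.50 and -1.13 in SI labelled female mice. SS and SI did not overlap on either slide, SI mouse 6 was the lowest of all mice, and SI mouse 4 was the highest SI mouse. The level was higher in SS by 1.52 (exact permutation within slides, two-sided, p = 0.00095, the smallest that the 1050 arrangements allow, and 0.0086 after adjustment over 9 marker lists). All 24 of its genes had a higher signal in SS in the limma fit, and 23 of them passed the adjusted threshold. Pf4, the platelet factor 4 chemokine, was higher by 1.42 ± 0.25, Ppbp by 1.31 ± 0.26 and Itga2b, the platelet fibrinogen receptor subunit, by 1.65 ± 0.34 (SE, limma adjusted p = 0.0047, 0.0061 and 0.0070). In whole samples such as these, a larger share of platelets and more RNA per platelet cannot be told apart.

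The monocyte level, over 22 of 24 listed genes found on the array, lay between -0.12 and -0.02 in SS and between -0.21 and 0.32 in SI labelled male mice. It lay between -0.83 and -0.05 in SS and between 0.08 and 0.96 in SI labelled female mice. It was lower in SS by -0.49 (exact permutation, two-sided, p = 0.0057, adjusted p = 0.017), with -0.17 on the first slide and -0.80 on the second, whose difference was not tested. None of its 22 genes passed in the limma fit and 5 had an unadjusted p under 0.05. Csf1r, the receptor that defines the monocyte lineage, differed by -0.63 ± 0.21 (limma adjusted p = 0.087) and Ccr2 by -0.03 ± 0.29 (0.97). The monocyte result did not pass under 3 other scalings or in the deposited value table, and leaving out either SI mouse of the second slide ended the call: it was -0.27 without mouse 27 and -0.71 without mouse 28 (exact permutation adjusted p = 0.32 and 0.051).

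To ask which members follow which level apart from the SS against SI difference, each mouse was expressed as its deviation from the mean of its own group. Pearson r was tested by exact permutation within groups, two-sided, over 18 relations with Benjamini-Hochberg adjustment. The 5 members that were higher in SS tracked the platelet level, although with Pf4 alone in place of the list Serpine2 had r = 0.79 and did not pass (exact permutation adjusted p = 0.061). With normexp background correction, Serpinb2 (r = 0.75) and Serpine2 (r = 0.71) did not pass (exact permutation adjusted p = 0.19 for each). The share of all tested genes with such a relation was not computed. Such tracking is therefore not shown to be particular to these members. For F5, r was 0.99 (rho = 0.96, n = 14, exact permutation p = 4e-05, the smallest the 27648 arrangements allow, adjusted p = 0.00033). It was 0.996 for the first slide and 0.96 for the second, and 0.96 without SI mice 6 and 4, which are farthest from the median.

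Pros1 followed with r = 0.95 (rho = 0.95, exact permutation adjusted p = 0.00033, 0.97 and 0.93 within the slides, 0.97 without the 2 farthest mice). For F13a1, r was 0.86 on the brighter probe (rho = 0.94, exact permutation adjusted p = 0.00043, 0.95 and 0.87 within the slides, 0.86 without the 2 farthest). The values for the 2 inhibitors fell further without those mice. For Serpinb2, r was 0.95 (rho = 0.75, exact permutation adjusted p = 0.0057, 0.96 and 0.81 within the slides) and 0.79 without SI mice 6 and 4. For Serpine2, r was 0.91 (rho = 0.67, exact permutation adjusted p = 0.0076, 0.94 and 0.59 within the slides) and 0.72 without them. None of these 5 had a relation to the monocyte level that passed, with r between -0.40 (Serpine2) and 0.19 (F13a1).

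**Figure D4:**
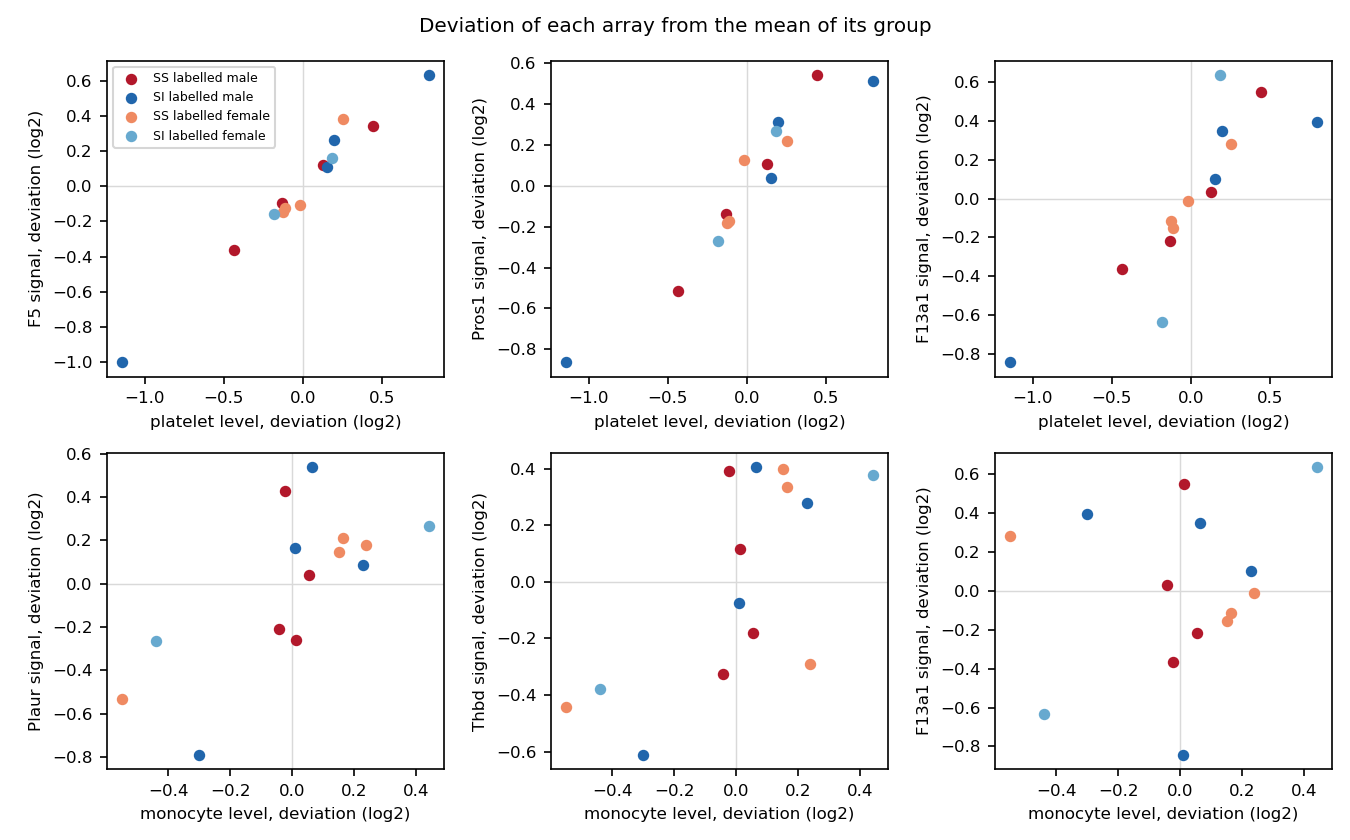
Deviation of each mouse from its group mean in log2 signal of a member (y axis) against its deviation in platelet level (top: F5, Pros1, F13a1) or monocyte level (bottom: Plaur, Thbd, F13a1); each point is 1 of 14 mice, coloured by group. F5 and Pros1 fall close to a line with the platelet level (r = 0.99 and 0.95), Plaur and Thbd rise loosely with the monocyte level (r = 0.71 and 0.69), and F13a1 shows no trend with it (r = 0.19).

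Plaur and Thbd were arranged the other way. With the monocyte level, r was 0.71 for Plaur (rho = 0.65, n = 14, exact permutation p = 0.020, adjusted p = 0.061; 0.67 and 0.97 within the slides) and 0.69 for Thbd (rho = 0.61, exact permutation p = 0.025, adjusted p = 0.064; 0.72 and 0.76 within the slides). Neither passed the adjusted threshold, and without SI mouse 28 and SS mouse 23, the farthest from the median, r was 0.62 and 0.58. Both passed under 3 other scalings and in the deposited value table, with r between 0.71 and 0.86 (exact permutation adjusted p between 0.0046 and 0.049). With Csf1r alone in place of the list, only Thbd passed. With 1 array left out, each passed in 3 runs and not in 11. In those runs r lay between 0.61 and 0.78 for Plaur and between 0.61 and 0.82 for Thbd. With the platelet level, r was -0.52 for Plaur and -0.22 for Thbd (exact permutation adjusted p = 0.34 and 0.69). Relations of members to the neutrophil level were not computed, nor was the share of all tested genes that follow the monocyte level. Following of monocytes in particular is therefore not shown for Plaur or Thbd.

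The brighter F10 probe followed neither level in a way that passed, with r = 0.37 to platelets and -0.46 to monocytes (exact permutation adjusted p = 0.63 and 0.068). The first of these turned to -0.29 without SI mice 6 and 4. The dimmer F10 probe had r = 0.67 to the platelet level (rho = 0.83, exact permutation p = 0.0021, unadjusted) and 0.35 to the monocyte level. The dimmer F13a1 probe had r = -0.01 to the platelet level, and 0.64 without SI mice 6 and 4, so the placing of F13a1 also depends on the probe. For Tfpi, r was 0.22 and -0.27 (exact permutation adjusted p = 0.69 and 0.11). The platelet and monocyte levels themselves had r = -0.14 within groups (n = 14, exact permutation p = 0.62).

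**Figure D5:**
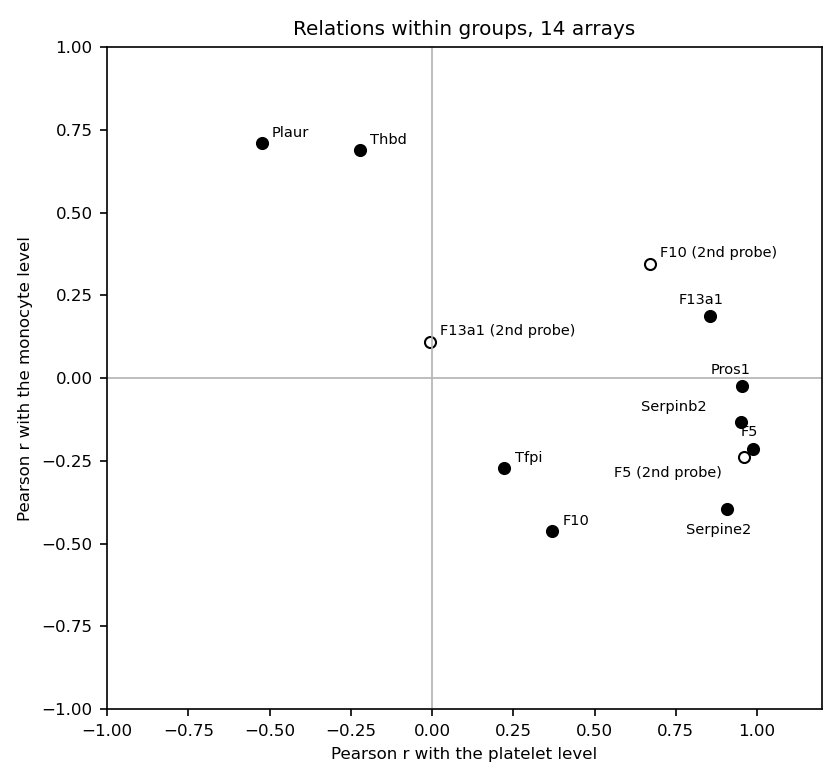
Pearson r of each tested probe with the platelet level (x axis) and with the monocyte level (y axis), from deviations of 14 mice from their group means; filled points are the probe that stands for a gene and open points the other tested probe. F5, F13a1, Pros1, Serpinb2 and Serpine2 gather at the right with platelet r of 0.86 or more, and Plaur and Thbd lie at the upper left with monocyte r of 0.71 and 0.69.

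Markers of other cells known to make these proteins were read on the same arrays. Of 12 endothelial genes, Cdh5, Tek, Cldn5, Sox18 and Robo4 were not well above background on any array, and 6 were tested. The endothelial level over these 6 lay between -0.010 and 0.63 in SS and between -1.15 and 0.43 in SI labelled male mice, and between 0.053 and 0.38 in SS and between -0.52 and -0.38 in SI labelled female mice. It was higher in SS by 0.76 (exact permutation adjusted p = 0.013), with 3 of 6 genes called in the limma fit (Pecam1, Plvap and Tie1, but not Kdr, Egfl7 or Flt1). Whether these 6 genes report endothelial cells in these samples was not tested, and the level is named after its list only. Tie1 was well above background in 2 of 4 SS and 1 of 4 SI labelled male mice and in 4 of 4 SS and 0 of 2 SI labelled female mice, so no exact difference is given for it. It reached the filter of 6 arrays mainly through SS mice, so its call is no support for a higher endothelial level. That level and its p-value include Tie1 and were not computed without it. Of 8 hepatocyte genes, Alb, Apoa1, Ttr and Apob were not well above background on any array, and the level over the 3 tested ones differed by -0.25 (exact permutation adjusted p = 0.70). The neutrophil level ran in opposite directions on the slides, 0.49 higher in SS on the first (exact permutation p = 0.029, the smallest its 70 arrangements allow) and -2.57 on the second (p = 0.067, the smallest of 15), where 8 of 13 genes were called lower; averaged over slides it differed by -1.04 (exact permutation adjusted p = 0.15). The part of these cells in the members' differences was not tested.

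Promoters of the members were read from RefSeq (GRCm38.p6), 300 bases from 250 before to 50 after the annotated start, for 8 members; Plau and Thbd were not matched. Windows of 3 members that follow platelets are shown, since GATA factors are known to drive megakaryocyte genes: 2 with GATA letters and 1 without. The letters AGATAA or TGATAA were searched on both strands and are in capitals. Pros1 (chr16:62854057-62854356, plus strand) holds a match starting at position -169, and the downstream start of Serpinb2 (chr1:107511260-107511559, plus strand) holds one at -41. F5 (chr1:164151585-164151884, plus strand) holds none in this window and holds the RUNX letters TGTGGT once, on one of its strands.
Pros1: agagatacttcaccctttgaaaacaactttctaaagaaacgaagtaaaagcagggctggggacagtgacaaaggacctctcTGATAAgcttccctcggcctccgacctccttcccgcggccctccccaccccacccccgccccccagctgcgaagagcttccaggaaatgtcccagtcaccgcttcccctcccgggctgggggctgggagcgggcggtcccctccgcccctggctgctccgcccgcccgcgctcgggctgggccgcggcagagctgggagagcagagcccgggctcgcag
Serpinb2: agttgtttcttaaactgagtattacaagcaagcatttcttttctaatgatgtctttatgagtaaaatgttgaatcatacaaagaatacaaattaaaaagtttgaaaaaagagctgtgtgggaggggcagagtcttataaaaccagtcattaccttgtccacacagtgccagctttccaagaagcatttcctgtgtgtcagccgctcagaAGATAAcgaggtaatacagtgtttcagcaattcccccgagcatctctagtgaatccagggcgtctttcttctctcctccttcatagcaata
F5: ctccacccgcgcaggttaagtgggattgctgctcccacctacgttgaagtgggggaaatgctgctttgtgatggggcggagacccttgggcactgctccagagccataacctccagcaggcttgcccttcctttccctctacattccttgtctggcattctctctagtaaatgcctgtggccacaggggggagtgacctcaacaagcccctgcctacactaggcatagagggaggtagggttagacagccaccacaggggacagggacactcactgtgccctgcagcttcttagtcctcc
Over all 11 member windows, 4 held the GATA letters, against 18.6% of 32851 mouse promoter windows of the same length. Some genes have more than 1 start among these windows: 2 of the 4 matches are in the windows of Tfpi, which did not follow platelets, and none is in those of F13a1 or Serpine2 or at the upstream start of Serpinb2. RUNX letters were in 1 of 11 windows (16.8% of all windows), and GAGGAA, a core of PU.1 and other ETS sites, in 5 of 11 (28.3%). These matches describe letters only.

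Genes whose signals ran most like each member over the 14 mice, after slide means were taken off, were found among 11486 genes. These likenesses include the SS against SI difference itself. For F5 they were Nipal3, Rbpms2 and Pcp4l1 (r = 0.996 each). For Pros1 they were Derl1, Rtl8b and Ptgs1, the last being the platelet cyclooxygenase (r from 0.995 to 0.997). For F13a1 they were Loxl3, Ninj1 and Litaf (r from 0.987 to 0.988). Serpinb2 ran with F2rl2, the thrombin receptor PAR3, and with Ttll1 and Map2k3 (r from 0.992 to 0.995), and Serpine2 with Odc1, Tubb1, the platelet tubulin, and Itga2b (r from 0.991 to 0.996).

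The remaining members had other neighbours. Plaur ran most like Fosl2, Degs1 and Efhd2 (r = 0.97 each) and Thbd like Samsn1, Cebpb, a myeloid transcription factor, and Bcl2a1d (r from 0.94 to 0.96). Tfpi ran with Cpb2, Papln and H2-M11 (r from 0.95 to 0.96), and the brighter F10 probe with the odorant receptor gene Olfr220, with Sirt6 and with Medag (r from 0.93 to 0.94).

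Among the wider pathway, 56 genes of coagulation and fibrinolysis including the members were on the array and 31 were tested. Of these, 8 were higher in SS and 0 lower in the fit over all mice, and their median difference was 0.14. Among all 11495 tested genes with a symbol, 990 were higher and 110 lower. A limma unadjusted p under 0.05 was found for 14 of the 31, beside 2742 of the 11495. Without the members, 3 of 22 were higher and 0 lower, with a median difference of 0.08. Besides the 5 members, the 3 were Vwf, F2r and F2rl2. Vwf, the multimeric protein that tethers platelets, read 5.41, 5.82, 5.58 and 5.14 in SS against 4.94, 4.21, 2.86 and 4.35 in SI labelled male mice, and 4.72, 4.79, 5.23 and 5.39 in SS against 3.58 and 3.28 in SI labelled female mice. The groups did not overlap, and Vwf was higher by 1.48 ± 0.27 (SE, n = 8 and 6, limma adjusted p = 0.0050). The thrombin receptor genes F2r and F2rl2 (PAR1 and PAR3) were higher by 0.96 ± 0.17 and 1.75 ± 0.35 (limma adjusted p = 0.0048 and 0.0062).

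By role, 1 of 6 tested procoagulant genes that are no member, 0 of 3 anticoagulants, 0 of 6 fibrinolysis genes, both tested thrombin receptors and 0 of 5 genes of vitamin K use and factor secretion were higher. The genes of prothrombin (F2), tissue factor (F3), factor XI (F11) and plasminogen (Plg), named after their values were seen, were not well above background on any array.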

How the data were processed

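Scanner files of 14 one-colour Agilent arrays were used. Their processed signals are fluorescence intensity with background subtracted by Agilent Feature Extraction (version 9.1 per the submitters' processing notes, but 10.7.3.1 per the file headers). The deposited value table holds log2 values of 27990 probes, with scaling and centring not stated there; it served as an alternative.

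Control spots were left out, spots of a probe averaged on the log2 scale, and each array scaled by the 75th percentile of probes well above background on all arrays. The 24033 of 55681 probes tested had signal well above background on 6 or more of the 14 arrays. Symbols came from RefSeq for 26419 of 31063 probes with such an accession; the array design is older than that table, so it gave no positions.

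SS was compared with SI by limma 3.58.1 (R 4.3.3), additively with slide and in a fit of 4 groups, with Benjamini-Hochberg adjustment over all tested probes. Levels and relations used exact permutation in Python 3.11.15. One gene of the wider list is not reported here and is in none of its counts. Named genes were all members, wider-list genes past the threshold, the 3 likest genes of each member and preset markers. Code was tested on simulated data. Alternatives covered scaling, background correction (on median signals, since no mean signal is in the files), filters, array weights, probe choice and leaving out each array. Arrays are labelled as separate mice; their number limits the precision. The members and lists were chosen with earlier results of these data known.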

Additional observations from a re-analysis of the deposited data

Results flagged for a closer look

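Among the members and marker levels, 4 of 42 groups of 4 mice held a value far from the other 3 by Dixon's criterion, where chance gives about 5% of groups. SS labelled female mouse 23 accounted for 3 of them: it was the highest of its group for F5 (4.19), and the lowest for Plaur (-1.23) and for the monocyte level (-0.83). SS labelled female mouse 22 was the lowest of its group for Tfpi (-8.42), where no mouse of that slide was well above background.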

How the results depend on the processing

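F5 and Pros1 kept a higher signal in SS with an adjusted p under 0.05 in the fit over all mice under every alternative run, and F13a1 under all but its dimmer probe. Serpinb2 and Serpine2 lost their calls with normexp background correction, which left 3 members called higher and 3 with a positive relation to the platelet level. In the deposited value table F5 differed by 0.69, F13a1 by 0.65 and the platelet level by 0.81, and all 3 still passed. The causes of these and the following changes were not tested.

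Array weights called 5010 probes higher and 5646 lower in SS, with 2 members lower. On the slide of the labelled males they called 14038 probes, with 6 members higher and 2 lower, on that of the labelled females 5 members higher, and between the slides 2394 probes. They turned the between-slide difference of Serpinb2 to -0.26, of Serpine2 to -0.27 and of Thbd to 0.46. Normexp called 1104 probes higher over all mice and 414 in labelled females, and turned the between-slide difference of Serpinb2 to -0.63 and of Serpine2 to -0.38. Without the filter on dim probes, 1092 probes were higher and 33 lower, and labelled females had 52 probes and 0 members called. With the percentile over all probes, 74 probes were lower over all mice, 2 were called in labelled males, 5 members were higher in labelled females, and the between-slide difference of Thbd was 0.21. Median scaling called 1 probe in labelled males and 1 member in labelled females. Quantile normalization called 2 probes in labelled males and 17 between the slides. It turned F10 to -0.11 over all mice, to -0.16 in labelled males and to 0.15 between the slides, Tfpi to 0.19 in labelled females and Thbd to 0.073 between the slides. The deposited table called 75 probes lower over all mice, 173 in labelled males, 460 (0 members) in labelled females and 35 between the slides, and gave F10 as -0.0205, -0.034, 0.0004 and 0.035 in these comparisons. Averaging the within-slide differences called 269 probes lower and turned F10 to -0.017, probes well above background on all arrays gave 262 lower, and fitting each slide alone called 1706 in labelled females. The mean of the probes turned F10 to 0.48 in labelled females and its dimmer probe, chosen after seeing the data as for F13a1, to 1.26. The dimmer F13a1 probe had r = -0.0069 to the platelet level.

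The monocyte level stayed lower in SS but did not pass with the percentile over all probes (-0.49, adjusted p = 0.15), median scaling (-0.44, 0.10), quantile normalization (-0.49, 0.057) or the deposited table (-0.49, 0.19; exact permutation). Under each of these 4 settings 2 members, Plaur and Thbd, had a positive relation to the monocyte level, and 1, F10, a negative one with the first 2 settings; with Csf1r alone 1 member, Thbd, had a positive one.

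Leaving out 1 array at a time, the number of probes lower in SS over all mice ran from 57 to 1453, that of members lower from 0 to 2, and probes called in labelled males from 0 to 9424, in labelled females from 43 to 1919 and between the slides from 1 to 664. Members called higher ran from 0 to 5 and lower from 0 to 1 on each slide. The highest probe counts came without SI mouse 4. Over all mice F10 ran from -0.11 to 0.24 and Tfpi from -0.37 to 0.80 (-0.34 to 1.75 in labelled males). Between the slides F13a1 ran from -0.021 to 1.25, Serpinb2 from -0.20 to 0.78, Serpine2 from -0.13 to 0.60 and Thbd from -0.51 to 0.25. The monocyte level ran from -0.71 to -0.27, and members related to it from 0 to 2 (positive) and from 0 to 1 (negative). No paired analysis was possible because the groups share no mouse numbers. Signals near background, as for Serpinb2, Serpine2 and Tfpi, limit what these arrays can show.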
